A study of Mus musculus with 12 samples.

Results

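Glucocorticoid-responsive genes were examined in mouse brown adipose tissue through 10 genes: Sgk1, Cdkn1a, Sdc4, Tsc22d3, Errfi1, Klf9, Fkbp5, Mt1, Mt2 and Ddit4. Every probe annotated to one of these symbols was taken, which gave 13 of the 25697 probes on the array (3 for Cdkn1a, 2 for Tsc22d3 and 1 for each of the others). All 13 probes passed the filter on dim probes, and the 10 genes were therefore among the 8035 tested. Tissue came from 6 WT samples and 6 SIRT1tg samples, the latter with the strain label SIRT1Tg/Tg. All were taken at 3 months of age on the C57Bl/6N background, and no sample had a recorded treatment. The labels do not name the promoter that drives the transgene or the cells that carry it, and nothing in them states that each sample is a different animal, so that each p-value measures only the spread between these samples. The 10 genes were chosen with earlier results of these arrays known, and their difference between WT and SIRT1tg is therefore given as a description.

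Glucocorticoids, which in mice means mainly corticosterone, bind the glucocorticoid receptor, a transcription factor that waits in the cytoplasm in a complex with heat shock proteins. The bound receptor enters the nucleus and acts through palindromic response elements or through other DNA-bound factors. Its targets include genes that feed back on the receptor or on inflammatory signalling (Fkbp5, Tsc22d3), regulators of kinase pathways (Sgk1, Errfi1, Ddit4), regulators of the cell cycle and transcription (Cdkn1a, Klf9) and the metal-binding metallothioneins (Mt1, Mt2). Most of them also answer to other signals, such as p53 for Cdkn1a, heavy metals for Mt1 and Mt2 and low oxygen for Ddit4. In brown fat, glucocorticoids are known to affect lipid storage and thermogenic genes.

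The arrays served as replicates of their group. Each column name of the non-normalised table holds its group and a number without a stated meaning, which falls in a low and a high range with 3 arrays of each group in each. The arrays are called WT 1 to WT 6 and SIRT1tg 1 to SIRT1tg 6 in the order of that number, with 1 to 3 in the low range. No label ties this order to the labelled replicates of the authors' processed table, but the signals of the 10 genes follow them by position. Sgk1, for example, had its highest WT value on WT 1 (log2 10.71) and in WT replicate 1 (linear 1728). Its lowest was on WT 5 (9.52) and in WT replicate 5 (781). Between 11221 and 12108 probes were detected per array, and precision is limited by how few arrays there are. Ucp1, the uncoupling protein that defines brown fat, was detected on all 12 arrays at a normalised log2 signal of 12.80 to 13.79. Sirt1 itself had a log2 signal of 6.88 ± 0.32 (SD, n = 6) in WT and 8.26 ± 0.21 (SD, n = 6) in SIRT1tg.

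To show which of these genes carry the letters of a known response element next to their start, the 250 bases upstream of each RefSeq start site were searched on both strands (mouse build GRCm38.p6, 19 windows for the 10 genes, with 10 of 10 genes matched). The palindrome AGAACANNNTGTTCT of the glucocorticoid response element was found in 1 of these windows, that of an Sgk1 start site, and in 3 of 32851 windows of all genes (0.00913%). The core of the metal response element, TGCGCNC or TGCACNC, was found in 4 of the 19 windows, those of Sdc4, Mt1, Mt2 and Ddit4, and in 21.4% of all windows. The sequences of the Sgk1 window and of both metallothionein windows are shown with the matched letters in capitals, because these are the genes with the rarest match and the highest correlation with one another. Each runs 5′ to 3′ on the plus strand and ends at the base before the start site.
Sgk1: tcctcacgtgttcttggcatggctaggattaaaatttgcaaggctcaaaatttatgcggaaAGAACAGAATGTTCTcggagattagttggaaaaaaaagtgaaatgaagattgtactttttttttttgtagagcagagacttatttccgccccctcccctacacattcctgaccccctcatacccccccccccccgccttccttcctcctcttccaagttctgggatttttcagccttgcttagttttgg
Mt1: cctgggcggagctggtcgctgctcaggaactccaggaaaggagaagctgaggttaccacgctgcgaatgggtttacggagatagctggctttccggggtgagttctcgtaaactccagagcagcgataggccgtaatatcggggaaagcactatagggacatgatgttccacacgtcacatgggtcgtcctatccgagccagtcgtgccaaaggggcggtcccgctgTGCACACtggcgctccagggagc
Mt2: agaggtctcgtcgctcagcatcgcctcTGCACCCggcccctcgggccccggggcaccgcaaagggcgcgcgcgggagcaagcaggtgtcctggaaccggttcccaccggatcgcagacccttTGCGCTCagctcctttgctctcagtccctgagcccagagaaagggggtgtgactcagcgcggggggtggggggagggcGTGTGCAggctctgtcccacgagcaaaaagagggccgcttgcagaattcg

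The Sgk1 window lies at chr10:21993640-21993889 in GRCm38.p6, and its match begins at position -189 from the start site, one of 6 that RefSeq gives for the gene. The Mt1 window lies at chr8:94178839-94179088 and holds 1 match, at -23. The Mt2 window lies at chr8:94172368-94172617 on the same chromosome and holds 3 matches, at -223, -128 and -50, of which the last reads on the minus strand. A single arm of the palindrome, AGAACA, which every palindrome holds as well, was found in 4 windows of Sgk1 and Tsc22d3 and in 16.1% of all windows. The cyclic AMP response element TGACGTCA was found in an Errfi1 window (1.55% of all windows). ACGTG, the core of the hypoxia response element, was found in 6 of the 19 windows, each of a different gene (16.6% of all windows). These matches describe letters and not bound sites.

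All 10 genes had a higher mean signal in SIRT1tg brown fat than in WT, by 1.12-fold for Ddit4 to 2.11-fold for Cdkn1a. The largest differences were those of Cdkn1a, Sdc4 and Sgk1, each close to a doubling, and the smallest those of Ddit4, Mt1, Fkbp5 and Mt2. The median log2 fold change over the 10 genes was 0.49, beside -0.01 over the 8035 genes tested, of which 47% lay above 0. None of the 10 passed limma at a Benjamini-Hochberg adjusted p under 0.05 (0 of 10), where 0.112% of all genes passed in the direction of SIRT1tg, and 6 of 10 had an unadjusted limma p under 0.05, where 7.62% of all genes did in that direction. The groups overlapped for each of the 10, where 0.734% of all genes were higher in SIRT1tg without overlap. The 10 genes were chosen on this contrast, so nothing is read from these shares. In bulk tissue, more cells of a type and more RNA per cell cannot be told apart.

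Sgk1 encodes the serum- and glucocorticoid-regulated kinase, which acts on ion channels and on FOXO factors. Its normalised log2 signal ran from 9.52 to 10.71 in WT with a median of 10.06, and from 10.52 to 11.45 in SIRT1tg with a median of 10.81. All SIRT1tg arrays but 2 lay above the highest WT array, WT 1, and the lowest WT array was WT 5. The difference was 0.88 ± 0.20 (SE) on the log2 scale, or 1.84-fold, and it was 0.89 among the arrays of the low number range and 0.87 among those of the high range.

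Errfi1 encodes a cytoplasmic inhibitor of the epidermal growth factor receptor. WT arrays ran from 7.09 to 8.59 with a median of 7.81, and SIRT1tg arrays from 7.97 to 8.82 with a median of 8.29. The same arrays, WT 5 and WT 1, were the lowest and highest of the WT group as for Sgk1, and 2 SIRT1tg arrays lay above WT 1. The difference was 0.60 ± 0.22 (SE), or 1.51-fold, at 0.49 in the low range and 0.70 in the high range.

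Ddit4 encodes REDD1, an inhibitor of the growth-promoting kinase complex mTORC1. Its signal ran from 7.75 to 8.95 in WT (median 8.13) and from 7.59 to 9.58 in SIRT1tg (median 8.38). SIRT1tg arrays held both the highest value, SIRT1tg 3, and the lowest, SIRT1tg 1. The difference of 0.16 ± 0.28 (SE) was smaller than its error and turned to -0.085 without SIRT1tg 3.

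Cdkn1a encodes the cell cycle inhibitor that p53 also induces, and it was read by 3 probes of the same transcript. At the brightest, WT arrays ran from 9.05 to 10.41 with a median of 9.63 and SIRT1tg arrays from 10.26 to 11.39 with a median of 10.60. Of the SIRT1tg arrays, 5 lay above the highest WT array, WT 3. The difference was 1.08 ± 0.26 (SE) at this probe, with 1.40 in the low and 0.75 in the high range, and 1.16 ± 0.27 and 0.97 ± 0.28 at the others. Centred within genotype, signals of the 3 probes correlated at Pearson r = 0.89 to 0.98 over the 12 arrays, so the probes moved together closely but not exactly.

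Klf9 encodes a Krüppel-like transcription factor that glucocorticoids and thyroid hormone induce. WT arrays ran from 9.86 to 10.36 (median 10.10) and SIRT1tg arrays from 10.14 to 10.82 (median 10.50). The signal separated the genotypes inside each number range, at 0.38 in the low and 0.39 in the high range, although the groups overlapped when the ranges were pooled. The pooled difference was 0.39 ± 0.14 (SE), or 1.31-fold.

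Sdc4 encodes syndecan-4, a heparan sulfate proteoglycan of the cell surface. WT arrays ran from 6.75 to 8.51 with a median of 7.54 and SIRT1tg arrays from 7.96 to 9.21 with a median of 8.54. WT 3 stood at the top of its group and WT 5 at the bottom, and 3 SIRT1tg arrays lay above WT 3. The difference was 0.93 ± 0.26 (SE), or 1.91-fold, at 0.86 in the low and 1.0 in the high range.

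Tsc22d3 encodes the glucocorticoid-induced leucine zipper, which restrains inflammatory transcription factors. Its brighter probe ran from 8.54 to 9.33 in WT (median 8.79) and from 8.96 to 9.92 in SIRT1tg (median 9.50). Here the highest WT array was WT 4, which was so for no other of the 10 genes, and the lowest was WT 1. The difference was 0.64 ± 0.18 (SE), and the other probe, annotated to a different RefSeq transcript, gave 0.45 ± 0.12. In the low range the brighter probe differed by 1.09 and in the high range by 0.20. The difference between these values was -0.89, with a limma adjusted p of 0.579 over all genes. For 0 of the 10 genes did the ranges differ in this way past the adjusted threshold (0.0124% of all genes).

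Fkbp5 encodes a cochaperone that lowers the affinity of the receptor for its hormone and that the receptor induces in turn. It was the most variable of the 10, with WT arrays from 4.44 to 7.07 (median 5.22) and SIRT1tg arrays from 4.53 to 7.24 (median 5.26). The medians were close together, and the high values were those of WT 3 and SIRT1tg 1, followed by SIRT1tg 3 at 6.38. Its probe was detected on 10 of 12 arrays, all but WT 1 and SIRT1tg 6. The difference was 0.24 ± 0.47 (SE), and it was -0.090 without SIRT1tg 1, 0.080 without SIRT1tg 3, 0.58 without WT 3 and -0.17 in the high range alone.

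Mt1 and Mt2 encode metallothioneins, small proteins that bind zinc and copper. Mt1 ran from 12.73 to 13.58 in WT (median 12.95) and from 12.95 to 13.67 in SIRT1tg (median 13.17). Mt2 ran from 4.69 to 6.06 in WT (median 5.20) and from 4.93 to 5.99 in SIRT1tg (median 5.52). For both, WT 3 was the highest WT array and SIRT1tg 1 the highest of its group, and the groups overlapped widely. The differences were 0.21 ± 0.16 (SE) for Mt1 and 0.25 ± 0.22 (SE) for Mt2. With an array left out they ran from 0.13 (without SIRT1tg 1) to 0.32 (without WT 3) for Mt1 and from 0.14 (without WT 5) to 0.41 (without WT 3) for Mt2. Whether either probe also binds the transcript of the other gene was not tested.

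**Figure D1:**
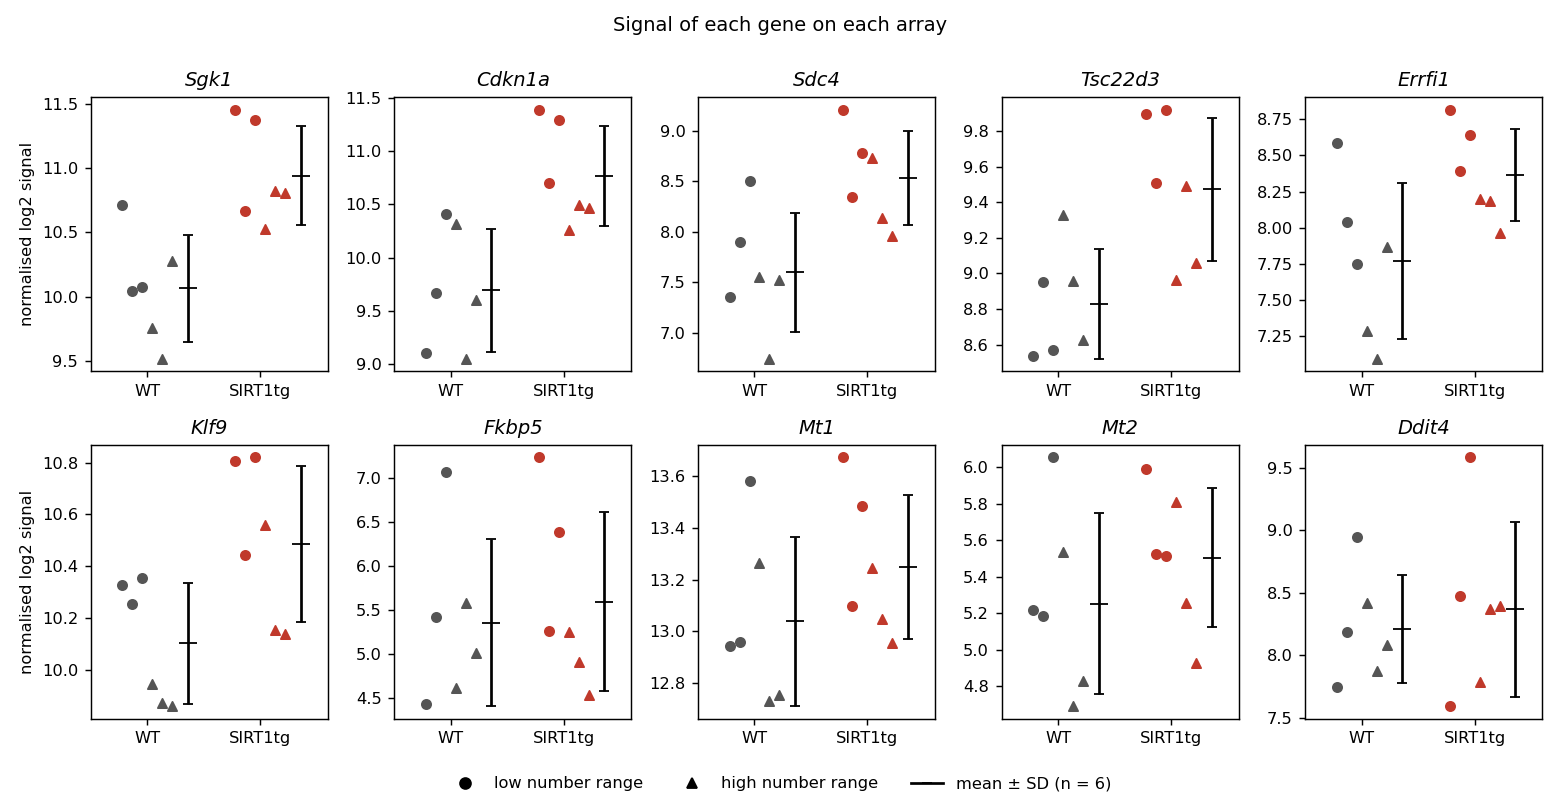
Normalised log2 signal (vertical axis, a separate scale for each gene) of the 10 genes on each of the 12 arrays, at the brightest probe of a gene, with circles for the low and triangles for the high number range and bars for the mean ± SD of 6 arrays. The mean of the SIRT1tg arrays is higher in each panel and the groups overlap in each, and the highest point of each panel belongs to the low range.

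The authors' processed table gave the same direction at all 13 probes. In these values, which are linear and background-subtracted, Sgk1 ran from 781 to 1728 in WT and from 1529 to 2839 in SIRT1tg, and Cdkn1a from 562 to 1419 and from 1288 to 2732. Fkbp5 ran from 5.41 to 132 in WT and from 7.78 to 150 in SIRT1tg, a spread of over an order of magnitude in either group. Ratios of group means were 2.01 for Cdkn1a, 1.92 for Sdc4, 1.78 for Sgk1, 1.59 for Tsc22d3, 1.48 for Errfi1 and 1.30 for Klf9. They were 1.29 for Fkbp5, 1.27 for Mt2, 1.20 for Ddit4 and 1.16 for Mt1. The log2 fold changes of the processed and the non-normalised table differed by at most 0.16, at the dimmer Tsc22d3 probe.

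**Figure D2:**
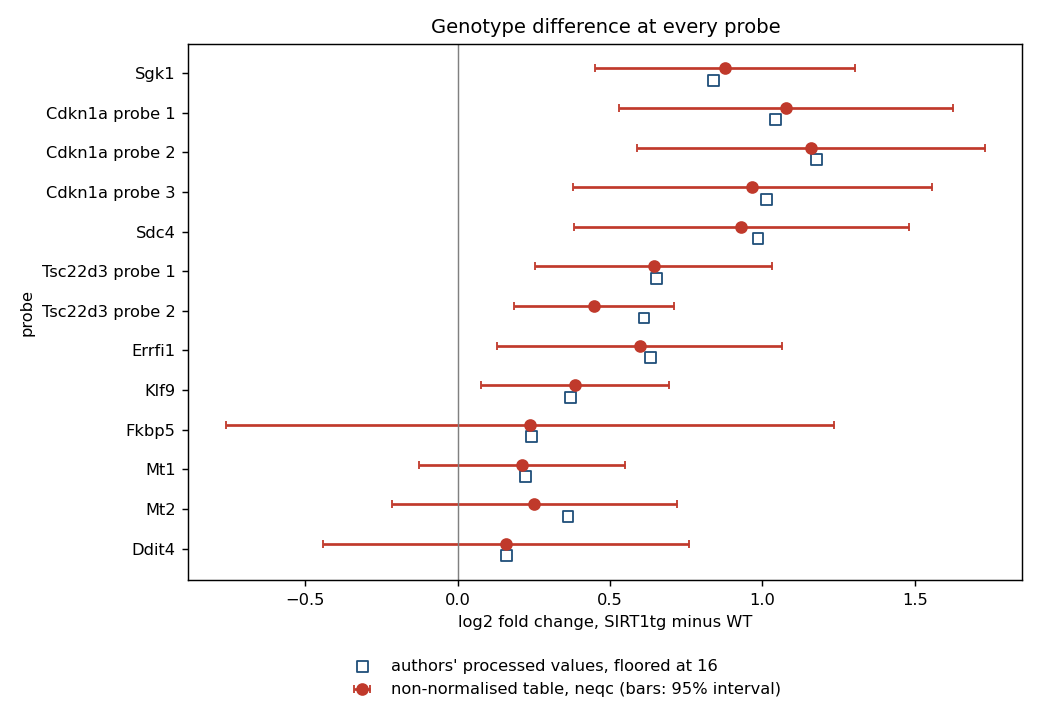
Log2 fold change, SIRT1tg minus WT (horizontal axis), at each of the 13 probes (vertical axis), with filled points and 95% intervals from the non-normalised table and open squares from the processed table floored at 16. All 13 points lie right of 0 in both tables, and the intervals of Fkbp5, Mt1, Mt2 and Ddit4 cross 0.

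The number range of the arrays moved with these genes as well. All 10 were lower in the high range than in the low range at equal genotype, by 0.16 on the log2 scale for Tsc22d3 to 0.99 for Fkbp5. Errfi1 and Klf9 fell in the high range, by 0.61 and 0.41, with limma adjusted p-values of 0.0433 and 0.0311, and these 2 of 10 stand beside 2.61% of all genes called lower in that range. Within the low range 3 of the 10 genes were higher in SIRT1tg without overlap, where 7.48% of all genes were, and within the high range 4 were, where 9.94% of all genes were. All but Fkbp5 were higher in SIRT1tg in both ranges. With the range as a block 1 of the 10 passed the adjusted threshold, Sgk1, where 0.672% of all genes passed in that direction. Leaving out WT 1 also brought Sgk1 past the threshold, where 151 of the 8035 genes passed in either direction. Array weights did so for Sgk1 and Cdkn1a, where 163 of the 8035 genes passed. The main fit called 12, so both runs called more genes over the whole array.

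The 10 genes tended to be high and low on the same arrays. Averaged over the genes after centring each on its mean over 12 arrays, the log2 signal was 0.75 on SIRT1tg 1, 0.72 on SIRT1tg 3 and 0.18 on SIRT1tg 2, and between -0.14 and 0.07 on the 3 SIRT1tg arrays of the high range. Among WT arrays it was 0.27 on WT 3 and between -0.65 (WT 5) and -0.20 on the remaining arrays. WT 3 thus lay above all SIRT1tg arrays but SIRT1tg 1 and SIRT1tg 3, and the mean was -0.27 ± 0.31 (SD, n = 6) in WT and 0.27 ± 0.38 (SD, n = 6) in SIRT1tg. SIRT1tg 1 and SIRT1tg 3 were each among the 3 highest arrays for 9 of the 10 genes, the exceptions being Ddit4 and Mt2. WT 5 was the lowest array for 6 of the 10.

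**Figure D3:**
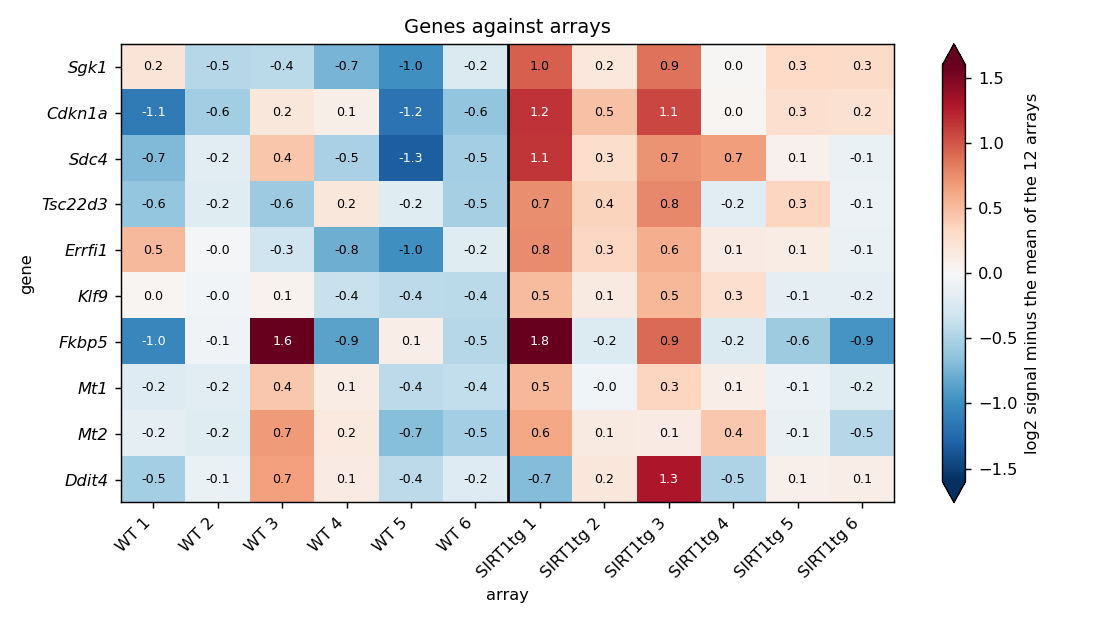
Log2 signal of the 10 genes (rows) on the 12 arrays (columns), each gene minus its own mean over the arrays, with red above and blue below that mean and the value in each cell. The columns of SIRT1tg 1 and SIRT1tg 3 are red for nearly every gene, WT 3 is red for 7 of 10 and WT 5 is blue for 9 of 10.

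After the genotype difference was taken out by centring each gene within WT and within SIRT1tg, the median Pearson correlation over the 45 pairs was 0.38 on 12 arrays (Spearman 0.41), with a range of -0.08 to 0.91. Of the pairs, 44 lay above 0 and 19 (42.2%) at 0.5 or more. Over all pairs of the 8035 genes the median was 0.00, and 9.48% lay at 0.5 or more. These correlations share the same arrays and their normalisation, and they are given as a description. Without the centring the median was 0.56, and without the 2 arrays farthest from the median, WT 3 and SIRT1tg 1, it was 0.34. Centring within number range too left 0.20, with 31.1% of pairs at 0.5 or more, where 10.4% of all gene pairs were.

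The tightest pairs lay among Mt1, Mt2, Sdc4, Cdkn1a and Klf9 and between Sgk1 and Errfi1. Mt1 correlated with Mt2 at r = 0.91, Sdc4 with Mt2 at 0.87 and with Mt1 at 0.86, Cdkn1a with Mt1 at 0.85 and Sdc4 with Klf9 at 0.77. Fkbp5 followed, with Mt1 at 0.76 and with Sdc4 at 0.74, while Cdkn1a and Klf9 correlated with each other at only 0.46. Sgk1 and Errfi1 correlated with each other at 0.88 and with Mt1 at 0.34 and 0.27. With the number range taken out as well, r was 0.90 for Mt1 with Mt2, 0.84 for Sgk1 with Errfi1, 0.84 for Cdkn1a with Mt1, 0.82 for Sdc4 with either metallothionein and 0.62 for Sdc4 with Klf9. Sgk1 and Errfi1 then correlated with Mt1 at 0.03 and -0.20. Tsc22d3 and Ddit4 were the loosest members, with a highest correlation of 0.59 and 0.52, both with Cdkn1a. Set against the mean of the other 9 genes, r was highest for Mt1 (0.90), Sdc4 (0.85), Klf9 (0.80) and Cdkn1a (0.80), intermediate for Mt2 (0.72) and Fkbp5 (0.71), and lowest for Sgk1 (0.46), Errfi1 (0.39), Tsc22d3 (0.36) and Ddit4 (0.28). With the number range taken out, it lay between 0.51 (Fkbp5) and 0.90 (Mt1) for the first 6 of these genes and was 0.22 for Tsc22d3, 0.13 for Ddit4, 0.07 for Sgk1 and -0.19 for Errfi1.

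Pairs of genes correlated more highly among SIRT1tg arrays than among WT arrays, with a median of 0.80 over 6 SIRT1tg arrays and 0.30 over 6 WT arrays, a difference that was not tested. In SIRT1tg 33 of 45 pairs reached 0.5, and in WT 20 did, where 18.5% of all gene pairs reached it in either group. In WT, Sgk1 and Errfi1 correlated at 0.96 with each other and at -0.72 and -0.67 with Tsc22d3, whereas in SIRT1tg the same pairs stood at 0.81, 0.86 and 0.88. Ddit4 ran the other way, with r = 0.85 to the mean of the other genes in WT and 0.02 in SIRT1tg. Across all 12 arrays centred within genotype, Sirt1 correlated with the mean of the 10 genes at 0.62, and with single genes at -0.06 (Tsc22d3) to 0.80 (Klf9). The correlations with Sirt1 were not computed with the number range taken out.

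**Figure D4:**
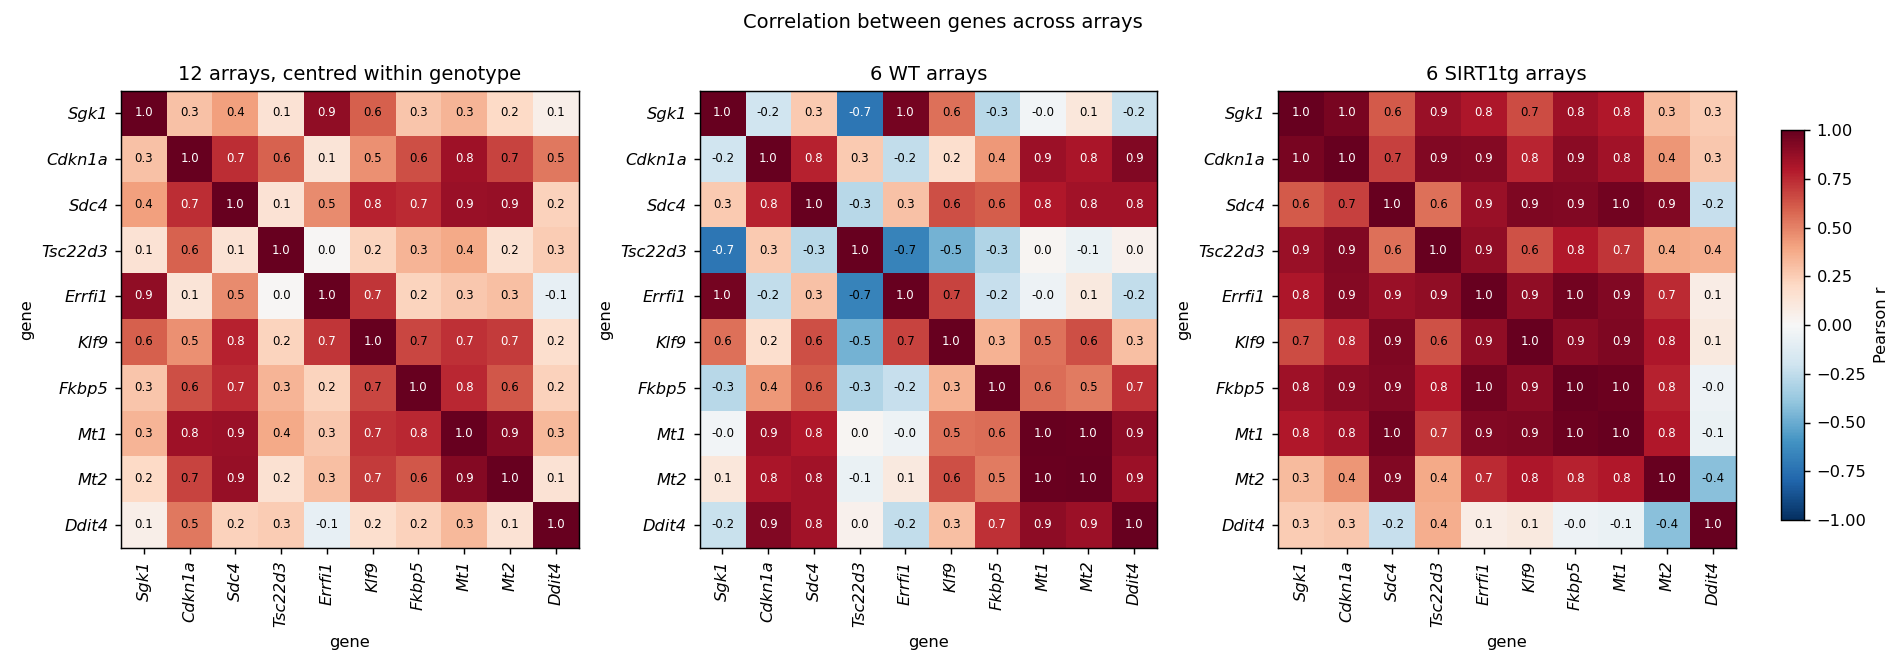
Pearson correlation between the 10 genes (rows and columns, colour from -1 to 1 with the value in each cell) over 12 arrays centred within genotype, over the 6 WT arrays and over the 6 SIRT1tg arrays. The SIRT1tg panel is red except for Ddit4, while the WT panel shows negative values between Tsc22d3 and both Sgk1 and Errfi1.

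Further genes that glucocorticoids are known to induce in mammalian tissues were compared as a list of 35, of which 32 had a probe and 29 were tested. Per1 and Nfil3 also stand in the clock list described later, and Dusp1 and Zfp36 in that of immediate early genes. None passed limma's adjusted threshold in either direction (0 of 29, and 0 with the number range as a block), where 0.149% of all genes did. At an unadjusted p under 0.05, 6 were higher and 1 lower in SIRT1tg, where 15.2% of all genes differed in either direction. The median log2 fold change was 0.15, with 18 of 29 above 0, and it was 0.22 in the low and 0.02 in the high range. Cebpb, a transcription factor of adipocyte differentiation, had a log2 signal of 11.25 ± 0.28 (SD, n = 6) in WT and 11.80 ± 0.18 (SD, n = 6) in SIRT1tg, a difference of 0.55 with a limma adjusted p of 0.067. Per1, a clock gene with a glucocorticoid response element, differed by 0.76 ± 0.22 (SE; limma adjusted p = 0.124).

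Mfsd2a, a lysolipid transporter induced by fasting and cold, ran from 4.58 to 8.97 in WT with a median of 5.80 and from 6.77 to 11.06 in SIRT1tg with a median of 8.62. Its difference of 2.56 ± 0.75 (SE; limma adjusted p = 0.127) came with a wide spread in both groups, and its correlation with the mean of the 10 genes, centred within genotype, was 0.88. The mean signal of the 29 genes correlated with that of the 10 at r = 0.86 (Spearman 0.73) over 12 arrays centred within genotype, at 0.72 with the number range taken out and at 0.67 without the 2 farthest arrays. Single genes of the 29 correlated with the mean of the 10 at -0.58 (Pck1) to 0.88 (Mfsd2a), so they did not all move with it.

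**Figure D5:**
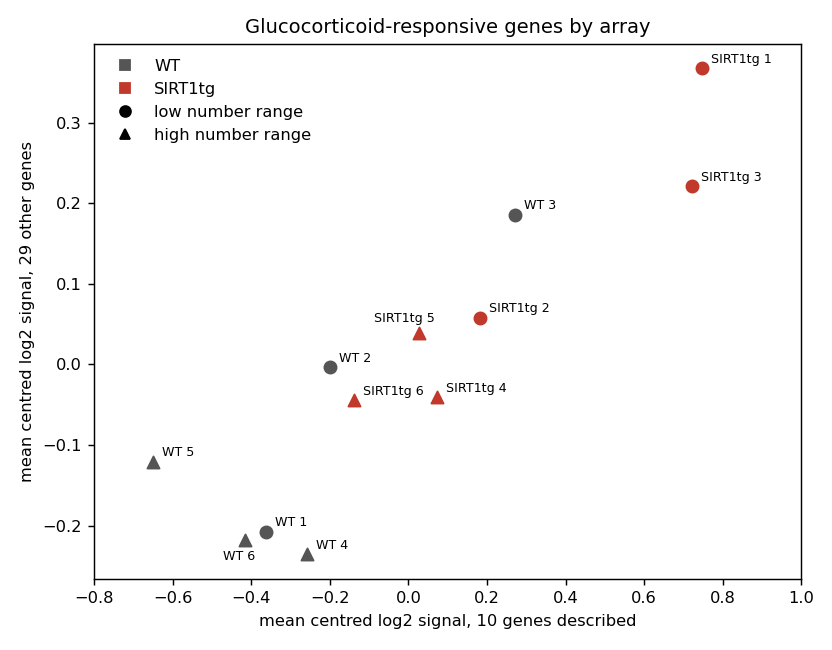
Mean centred log2 signal of the 29 other glucocorticoid-responsive genes (vertical axis) against that of the 10 genes described (horizontal axis), 1 point per array, with colour for genotype and shape for the number range. SIRT1tg 1, SIRT1tg 3 and WT 3 lie at the upper right, and 5 of 6 WT arrays lie left of 0.

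Of 17 genes for the glucocorticoid receptor, its chaperones, its coregulators and the enzymes that handle its ligand, 13 had a probe and 9 were tested. None of the 9 passed limma's adjusted threshold (0 of 9), and the median log2 fold change was 0.24. At an unadjusted p under 0.05, 4 were higher, where 7.62% of all genes were. Ptges3, which encodes the p23 cochaperone of heat shock protein complexes, differed by 0.66 ± 0.15 (SE; limma adjusted p = 0.0627). Hspa8, the constitutive heat shock cognate protein, differed by 0.47 ± 0.13, and Med1, a mediator subunit that binds nuclear receptors, by 0.32 ± 0.10. A pair of genes was picked out after their values were seen. The probe of the receptor gene itself, Nr3c1, was detected on 0 of 12 arrays, so its level was not measured. Hsd11b1, the enzyme that regenerates active glucocorticoid inside cells, differed by 0.47 ± 0.18 (SE; limma adjusted p = 0.223), and it correlated with the mean of the 10 genes at r = 0.01. The list as a whole correlated with that mean at 0.14, and its single genes at -0.65 (Stip1) to 0.54 (Ncoa1).

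Lists for the other signals that act on these genes were set beside them. None of their members passed limma's adjusted threshold, where 0.149% of all genes did. At an unadjusted p under 0.05, 7.62% of all genes were higher in SIRT1tg and 7.63% lower. Of 10 metal-response genes 2 were tested, with 0 at an unadjusted p under 0.05, and the differences were 0.19 ± 0.18 for the zinc exporter gene Slc30a1 and -0.14 ± 0.43 for Hmox1, which encodes heme oxygenase. Of 16 p53 targets 11 were tested, with a median of -0.06 and 1 gene in each direction at an unadjusted p under 0.05. The smallest p-values in that list were those of Ei24 (0.38 ± 0.14), Sesn1 (-0.33 ± 0.13) and Phlda3 (-0.29 ± 0.14), so that its members did not share a direction. Of 18 hypoxia genes 14 were tested, with a median of 0.16 and 4 higher at an unadjusted p under 0.05. They included the hexokinase gene Hk2 (0.66 ± 0.15; limma adjusted p = 0.0627), the oxygen-sensing prolyl hydroxylase gene Egln3 (0.69 ± 0.19) and Mxi1 (0.43 ± 0.15).

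The immediate early genes, which respond within minutes to many stimuli, had a median log2 fold change of -0.27, with 3 of 13 above 0. Junb differed by -0.71 ± 0.22 and Klf6 by -0.49 ± 0.18, while Klf4 differed by 0.79 ± 0.27. At an unadjusted p under 0.05, 1 was higher and 3 were lower, where 7.62% and 7.63% of all genes were. With the number range as a block Junb passed at a limma adjusted p of 0.0432, where 84 of the 8035 genes passed in either direction. The circadian clock list had a median of 0.09 over 13 genes, with 4 higher and 2 lower at an unadjusted p under 0.05. Per2 differed by 1.05 ± 0.32 and the repressor gene Nr1d1 by -1.07 ± 0.29. Correlations of the list means with the mean of the 10 genes were 0.73 for metal response, 0.62 for p53 targets, 0.59 for immediate early genes, 0.43 for hypoxia and 0.03 for the clock. With the number range taken out they were 0.62, 0.27, 0.17, 0.67 and -0.34 in the same order. Without the 2 farthest arrays, WT 3 and SIRT1tg 1, they were 0.23, 0.75, 0.37, -0.27 and 0.11, so that hypoxia changed sign.

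Markers of cell types in the tissue varied between the arrays too. All 17 macrophage markers with a probe were tested, and 0 passed limma's adjusted threshold, while 10 were lower in SIRT1tg at an unadjusted p under 0.05, where 7.63% of all genes were. Their summed linear signal ran from 4545 to 8310 in WT and from 3570 to 5932 in SIRT1tg. The list mean correlated with the mean of the 10 genes at r = 0.76 centred within genotype and at 0.88 with the number range taken out. With the macrophage signal as a covariate the median log2 fold change of the 10 genes was 0.74, beside -0.02 over all genes. Cdkn1a then passed the adjusted threshold, where 7 of the 8035 genes passed in either direction. Muscle markers were tested for 16 of the 21 with a probe and correlated at -0.54, or -0.34 with the number range taken out. None passed, and 0 differed at an unadjusted p under 0.05. Of the 16 muscle markers, 0 lay above 0, with a median log2 fold change of -1.21 (-1.66 in the low and -0.52 in the high range). Their summed signal ran from 2356 to 18420 in WT and from 2538 to 22298 in SIRT1tg, and with this signal as a covariate the median of the 10 genes was 0.39. Of 15 fibroblast and matrix markers tested, 0 passed limma's adjusted threshold and none lay above 0. At an unadjusted p under 0.05, 10 of the 15 were lower, where 7.63% of all genes were. The summed signal of the 15 ran from 6940 to 10140 in WT and from 6005 to 6990 in SIRT1tg. Of 14 endothelial markers tested, 0 passed and 6 were higher at an unadjusted p under 0.05, where 7.62% of all genes were. With the range blocked 2 passed, Sox17 and Sox18, where 0.672% of all genes passed in that direction. Both were singled out after their values were seen. The summed signal of the 14 ran from 4874 to 6899 in WT and from 5978 to 7632 in SIRT1tg. The correlation with the mean of the 10 genes was 0.44 for the matrix, 0.63 for the endothelial, 0.85 for the brown adipocyte (12 of 14 tested) and -0.60 for the red cell list (4 of 5). With the number range taken out these were 0.65, 0.07, 0.78 and -0.05. Single brown adipocyte markers, centred within genotype, correlated with that mean at -0.41 (Cox7a1) to 0.77 (Ppargc1a), with 0.52 for Ucp1. The part of these lists in the values of the 10 genes was not tested.

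The genes whose signal followed the mean of the 10 most closely, by Pearson's r over 12 arrays centred within genotype, were Lrrk1, a kinase gene (0.97), Etf1, which encodes a translation termination factor (0.94), the amino acid transporter gene Slc7a8 (0.93), the progranulin gene Grn (0.93) and Noct, which encodes the rhythmically expressed enzyme nocturnin (0.93). They were followed by Arc, an immediate early gene best known from neurons (0.92), the ribosome-binding membrane protein gene Rrbp1, the stress granule gene G3bp2, the vesicle transport gene Rab8b and the Hippo pathway gene Sav1 (0.91 each). Their genotype differences did not share a direction, from -0.27 ± 0.11 (SE) for Lrrk1 to 0.67 ± 0.24 (SE) for Noct. The smallest limma adjusted p among them was 0.204, for Noct.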

How the data were processed

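Signals of 6 WT and 6 SIRT1tg samples were read on Illumina arrays from biotin-labelled RNA, per the labels' protocols, and the submitters' processing notes name GenomeStudio. Deposited were non-normalised bead intensity values with a detection p-value per probe and array, per the file headers. The authors also deposited processed intensity values. By their values these were linear, background-subtracted (26.1% at or below 0), not centred and normalised to an upper quartile of 57.7 in every column by a method that stays unknown. Column medians were 5.757, 5.743, 5.735, 5.752, 5.752 and 5.746 in WT replicates 1 to 6 and 5.738, 5.745, 5.733, 5.705, 5.759 and 5.732 in SIRT1tg replicates 1 to 6.

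The non-normalised values went through neqc in limma 3.58.1 (R 4.3.3), which corrects background by a normal-exponential model, adds an offset of 16, quantile-normalises and takes log2. Kept were 10771 of the 23978 probes with 1 gene symbol, those whose detection p was below 0.05 on 6 or more of 12 arrays, and the brightest probe stood for a gene (8035 genes). Groups were compared with lmFit and eBayes without covariates, with Benjamini-Hochberg adjustment over all genes. Every adjusted p is from limma. Summed signals are sums of 2 to the power of the normalised log2 signal. The code was tested on simulated data. Named were Sirt1, the 10 genes with every probe, up to 3 genes of each signal list with the smallest p, and the 10 genes most alike. The members and all lists were chosen with earlier results of these data known. Promoter windows are RefSeq's, from GRCm38.p6.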

Additional observations from a re-analysis of the deposited data

How the results depend on the processing

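The 10 genes kept a median log2 fold change above 0 under every alternative run, at 0.40 to 0.59 when an array was left out, and the 29 other glucocorticoid-responsive genes at 0.06 to 0.19. Single genes reversed in 5 cases: Fkbp5 at -0.054 with array weights, -0.0755 with the muscle signal as a covariate, -0.090 without SIRT1tg 1 and -0.17 in the high range alone, and Ddit4 at -0.085 without SIRT1tg 3. Left-out arrays gave -0.090 to 0.58 for Fkbp5 and -0.085 to 0.31 for Ddit4. The causes were not tested. The count of all genes past the adjusted threshold, 12, was 3 with median scaling, 26 with detection on all 12 arrays (which drops Fkbp5), 163 with array weights, 24 with a robust trended prior, 84 with the number range as a block, 66 with the muscle and 7 with the macrophage signal as a covariate. It was 1 in the low range alone, 4 in the high range alone, 5 without WT 3 and SIRT1tg 1, and 3 to 151 when an array was left out, the highest without WT 1, and was within 1.5 times of 12 only without WT 6 or SIRT1tg 1. Median scaling moved the median of all genes to -0.10, and all 10 genes were still higher. The median correlation was 0.30 (without SIRT1tg 3) to 0.55 (without WT 1) and 0.80 over SIRT1tg arrays alone, and array weights and the robust prior give it no value. On the processed values, a replicate block gave a median correlation of 0.12, a median log2 fold change of 0.50 and 9 genes past the threshold. Same-numbered samples deviated together at r = -0.13 to 0.50, and 3 of 6 WT samples correlated best with their own number. These values cannot decide whether the numbers pair samples, and the main fit used no pairing. The macrophage covariate, the single ranges, the single genotypes and the pair of arrays left out were added after the data were seen. Signal over background limits Fkbp5, Mt2 and the dimmer Tsc22d3 probe most, since the offset compresses the folds of dim probes.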
